A study of Homo sapiens with 24 samples.

Results

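The integrin subunit genes ITGA2, ITGA3, ITGA5, ITGA6, ITGAV, ITGB1, ITGB3, ITGB4, ITGB5 and ITGB6 were chosen by symbol, and all 10 were found among the 60448 symbols of each count table, of which 19238 are protein-coding. They encode the alpha and beta chains from which epithelial cells assemble most of their matrix receptors. RNA was sequenced in 24 libraries of BPH-1 and RWPE-1, lines of human prostate epithelium immortalized with SV40 and HPV18 genes. Vector control cells (3 BPH-1 libraries and 1 RWPE-1 library) carried the FU-ILYW lentiviral vector, and C-Raf parental cells (3 and 4 libraries) overexpressed the kinase C-Raf from the ubiquitin promoter of the same vector. C-Raf metastasis-derived lines (6 and 7 libraries) were grown from tumors that formed in bone, spine, lymph node or thymus after intracardiac injection of C-Raf parental cells into NSG mice, which lack T, B and NK cells. All cells, controls included, were made to carry luciferase reporters according to the study's methods. The sample titles, however, name the Gaussia reporter only for BPH-1 cells that had not been through a mouse. For the metastasis-derived BPH-1 lines and for every RWPE-1 library the title leaves it out. Whether the reporters differed, and their part in differences between stages in BPH-1 or between cell lines, was not tested. RWPE-1 was grown without serum in medium with bovine pituitary extract and EGF, and BPH-1 in medium with serum, and medium and cell line cannot be told apart. The labels do not say that libraries of a group came from separate cultures, so p-values measure the spread between these libraries, which may be technical.

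An integrin is a heterodimer of 1 alpha and 1 beta chain. The beta1 chain, encoded by ITGB1, pairs with many alpha chains: with alpha2 (ITGA2) it binds collagen, with alpha3 (ITGA3) and alpha6 (ITGA6) it binds laminin, and with alpha5 (ITGA5) it binds fibronectin. The beta4 chain (ITGB4) pairs with alpha6 alone and anchors basal epithelial cells, those of the prostate included, to laminin in hemidesmosomes. The alphaV chain (ITGAV) pairs with beta1, beta3 (ITGB3), beta5 (ITGB5) or beta6 (ITGB6) in receptors that recognise the RGD tripeptide of fibronectin, vitronectin and latent TGF-beta.

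In the GENCODE version 29 annotation of GRCh38, ITGA6, ITGAV and ITGB6 lie on chromosome 2, at chr2:172427354-172506282, chr2:186590065-186680901 and chr2:160099666-160200313. Chromosome 17 holds ITGA3 at chr17:50055968-50090481, ITGB3 at chr17:47253846-47311816 and ITGB4 at chr17:75721328-75757818. The others are ITGA2 at chr5:52989326-53094779, ITGA5 at chr12:54395261-54419460, ITGB1 at chr10:32900319-33005792 and ITGB5 at chr3:124761948-124901418. ITGA5, ITGB1, ITGB5 and ITGB6 are on the minus strand. All exons of a gene were counted together, so no isoform is resolved. The pseudogene ITGB1P1 carried counts of its own that came to between 1.05% and 3.05% of those of ITGB1 in the deeper libraries, so a share of ITGB1 reads may have been assigned to it. ITGB3 shares 2266 exon bases on the same strand with the annotated gene AC068234.1, and ITGB6 shares 966 with AC092153.1, neither of which is a row of the tables.

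Promoter sequence was read from the RefSeq table for GRCh38.p14, which held 12 starts for 7 of the 10 genes. Each start was searched on both strands, from 250 bases before it to 50 after, for an AP-1 motif (TGANTCA) and an ETS motif (CCGGAAGT), because these factors act downstream of the Raf, MEK and ERK kinases. The AP-1 letters occurred in 7.71% of the 35116 promoters in the table and, among the integrin genes, at ITGA5, and the ETS letters occurred in 4.14% of promoters and, among the integrin genes, at 1 of the 3 starts of ITGB5. Shown are the last 100 bases before the start and the first 10 after it, 5′ to 3′ on the gene's own strand, for genes whose levels are described in most detail: ITGA2 (chr5:52989252-52989361, plus strand), ITGA5 (chr12:54419257-54419366, minus strand), the farther downstream of the 2 ITGA6 starts (chr2:172427486-172427595, plus strand), ITGB6 (chr2:160200263-160200372, minus strand) and the ITGB5 start with the ETS letters (chr3:124901409-124901518, minus strand). Capitals mark the letters of a motif on either strand.
ITGA2: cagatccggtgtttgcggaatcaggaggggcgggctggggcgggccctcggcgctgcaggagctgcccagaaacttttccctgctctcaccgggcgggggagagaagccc
ITGA5: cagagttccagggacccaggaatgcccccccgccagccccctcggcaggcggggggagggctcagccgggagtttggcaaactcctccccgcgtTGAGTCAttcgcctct
ITGA6: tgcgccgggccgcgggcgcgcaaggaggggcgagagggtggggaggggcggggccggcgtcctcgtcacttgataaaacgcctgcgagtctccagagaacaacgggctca
ITGB6: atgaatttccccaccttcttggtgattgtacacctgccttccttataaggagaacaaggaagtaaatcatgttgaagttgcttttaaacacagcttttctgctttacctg
ITGB5: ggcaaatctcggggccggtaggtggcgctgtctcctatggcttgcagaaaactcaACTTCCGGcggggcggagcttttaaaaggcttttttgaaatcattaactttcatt

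The ITGB6 promoter had no CpG in its 300 bases and 31.7% G and C, against 72.7% for ITGA2, 69.3% for ITGA5 and 72% for this ITGA6 start. A motif match describes the sequence and does not show binding.

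The 21 deeper libraries held 20568425 to 42011323 protein-coding counts, and the low-depth BPH-1 libraries BONE R071, BONE R074 and BONE R075 held 111185 to 464738, that is 0.27% to 5.14% of their totals. Those 3 libraries were kept out of the fits and are described separately. The RNA of signal recognition particle gene RN7SL1 took 4.6% to 30.3% of all counts in the 3 deeper BPH-1 metastasis-derived libraries (BONE R069, BONE R072 and THYMUS R075) and at most 0.00932% in the other 18. BONE R072 had 38.9% protein-coding counts and the lowest TMM scaling factor of the 21, 0.589. Its levels below are scaled, and only those of ITGB6 and ITGB5 are also given without that scaling. All 5 basal prostate epithelial markers reached a level of at least 1 CPM (counts scaled per library as described next) in each group, no marker in the haematopoietic list did, and the summed fibroblast and stromal markers ran from 7.85 to 72 CPM. A level in CPM is a gene's share of the protein-coding counts of its library, with TMM factors set over the 21 libraries. A gene was called when edgeR's quasi-likelihood p, adjusted by Benjamini-Hochberg over all genes tested, was below 0.05. In RNA from a whole culture, fewer cells that express a gene and less RNA per cell cannot be told apart.

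**Figure D1:**
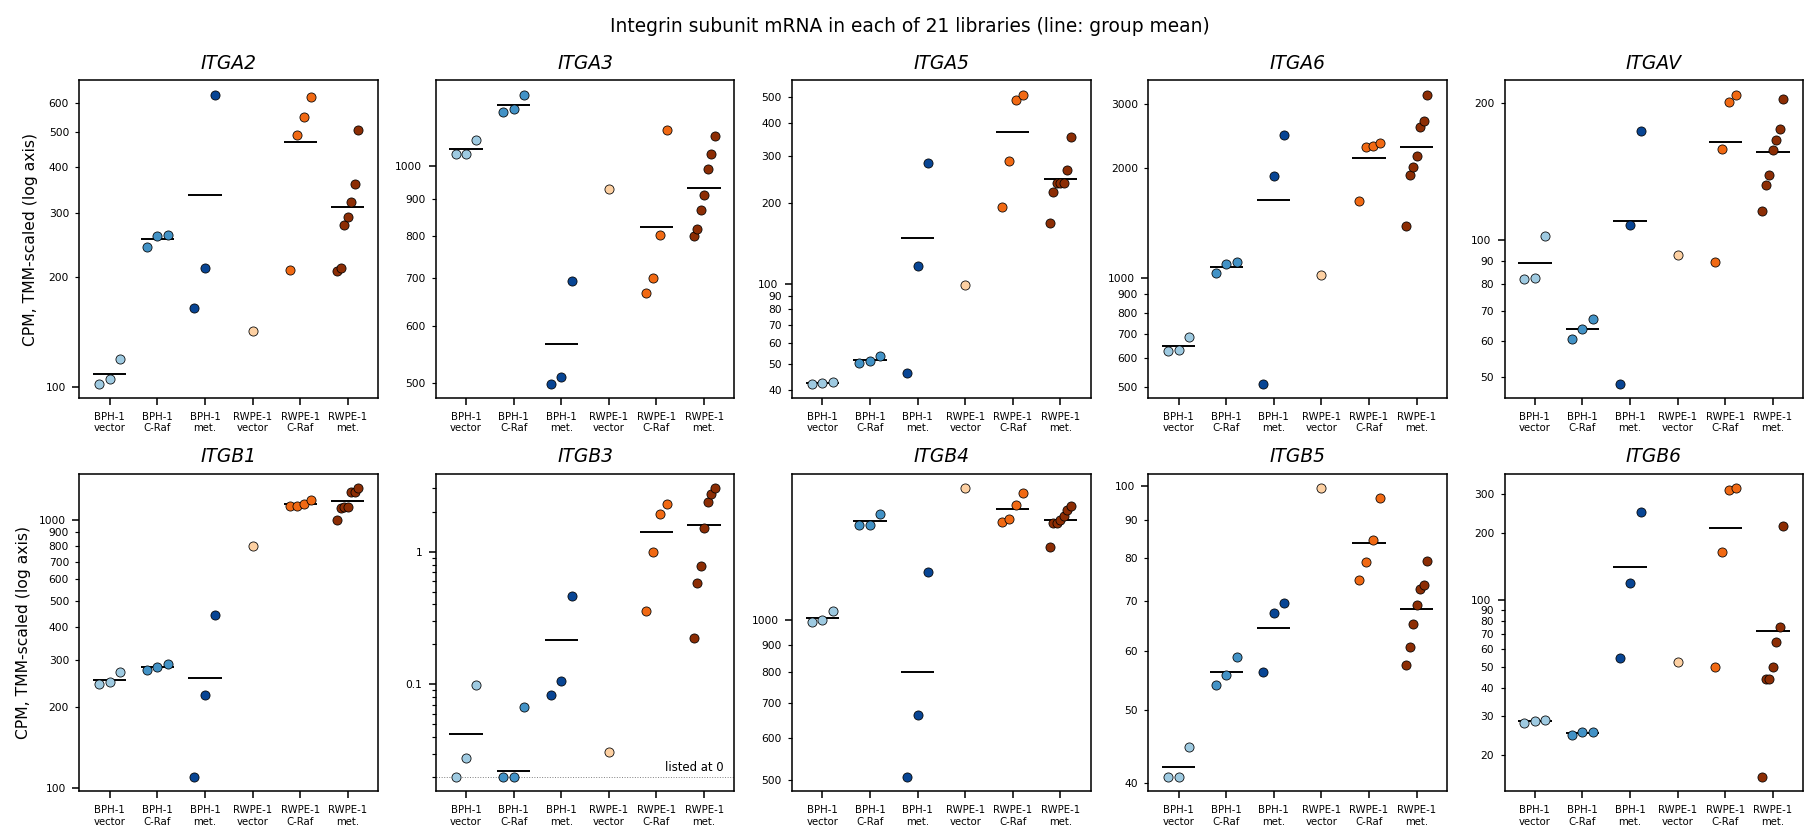
TMM-scaled CPM (log axis, its range set for each gene) of the 10 integrin subunit genes in 21 libraries of 6 groups, 1 point per library with a line at the group mean. Control and C-Raf parental libraries of BPH-1 lie close together and the BPH-1 metastasis-derived libraries (met.) spread widely, with ITGB6 from 54.6 to 249 CPM.

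Levels were first compared between genes per kilobase of exon, since long transcripts gather more reads. BPH-1 vector control cells carried the laminin receptor chains at the highest levels, with means of 150 CPM per kb for ITGB4, 108 for ITGA3 and 99.3 for ITGA6. ITGB1 followed at 42.3 CPM per kb, then ITGA2 at 13.8 and ITGAV at 10.8. ITGB5, ITGB6 and ITGA5 had 6.52, 6.06 and 5.60 CPM per kb. Neighbouring genes in that order did not overlap between the 3 libraries. In RWPE-1 C-Raf parental cells the order began with ITGA6 at 328 CPM per kb and ITGB4 at 239, whose libraries overlapped, followed by ITGB1 at 191. ITGA3, ITGA2, ITGA5, ITGB6 and ITGAV came next at 84.0, 59.0, 48.8, 45.0 and 20 CPM per kb, and each of them overlapped with the next. ITGB5 had 13 CPM per kb and overlapped with ITGAV. ITGB3 was the lowest of the 10 in every group, between 0.00507 and 0.365 CPM per kb.

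**Figure D2:**
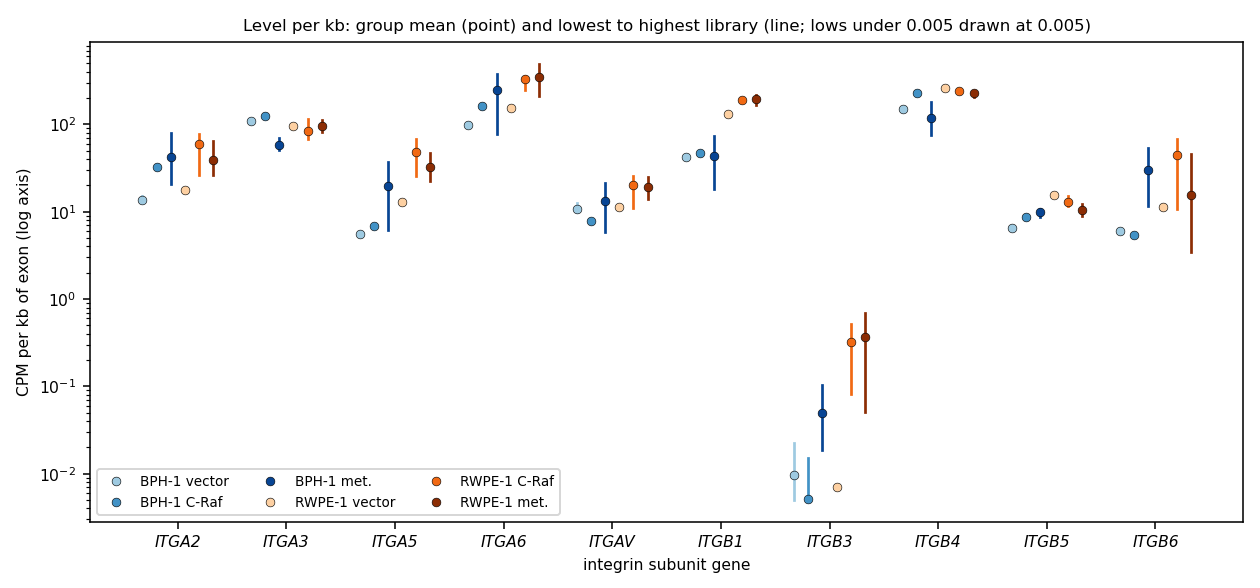
CPM per kb of exon (log axis) of each gene in the 6 groups, with the group mean as a point and a line from the lowest to the highest library. ITGB4, ITGA6 and ITGA3 stand highest in BPH-1 vector control cells and ITGB3 lies lowest in every group.

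C-Raf parental BPH-1 cells were compared with vector control cells to ask what C-Raf overexpression changed before any passage through a mouse. Of the 9 integrin genes tested, 7 rose and 2 fell, and ITGB3 was too low for the test. Over all 13235 genes tested, 59.8% were called, 30.4% higher and 29.4% lower. The median log2 fold change of the 9 genes was 0.29, and that of all genes tested was 0. The libraries of these groups varied by 1.68 to 4.57 times the counting noise, so that small differences passed the test.

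ITGA2, the collagen-binding alpha chain, rose most of the 9. Its level was 105, 119 and 102 CPM in the 3 vector control libraries and 260, 242 and 259 CPM in the C-Raf parental ones, a log2 fold change of 1.23 ± 0.04 (SE), with an adjusted p of 1.05e-20 in edgeR. The groups did not overlap, and the fitted ratio was 2.35.

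Both chains of the hemidesmosome receptor rose. ITGA6 had 631, 686 and 630 CPM in vector control and 1087, 1027 and 1101 CPM in C-Raf parental libraries, a log2 fold change of 0.73 ± 0.03 with an edgeR adjusted p of 1.42e-17. ITGB4 had 992, 1041 and 1000 CPM against 1587, 1512 and 1511, a log2 fold change of 0.61 ± 0.03 with an edgeR adjusted p of 2.66e-17. Every C-Raf parental library lay above every control for both genes. ITGA3, the other laminin-binding alpha chain, rose by less, from 1039, 1088 and 1040 CPM to 1257, 1189 and 1200 (log2 fold change 0.21 ± 0.03).

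ITGB1, the shared beta chain, rose by 0.16 ± 0.03 on the log2 scale, from 248, 270 and 244 CPM to 284, 276 and 290. The fibronectin receptor chain ITGA5 had 42.5, 42.2 and 42.6 CPM in the controls and 53.3, 51.3 and 50.5 with C-Raf (0.29 ± 0.04). ITGB5, a partner of alphaV in vitronectin receptors, went from 40.7, 44.6 and 40.7 CPM to 58.9, 54.0 and 55.7 (0.43 ± 0.04). No group of these 3 genes overlapped with the other.

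ITGAV and ITGB6, which together form the latent TGF-beta receptor of epithelia, were the ones that fell. ITGAV had 82.7, 102 and 82.0 CPM in vector control libraries and 63.9, 60.6 and 67.2 with C-Raf, a log2 fold change of -0.47 ± 0.06. ITGB6 had 28.7, 28.5 and 28.1 CPM and then 25.4, 24.7 and 25.6 (-0.17 ± 0.05, adjusted p = 0.00257 in edgeR). The fall of ITGB6 was small, but the groups did not overlap. ITGB3 had 4 counts over the 3 control libraries and 2 over the 3 C-Raf parental libraries.

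**Figure D3:**
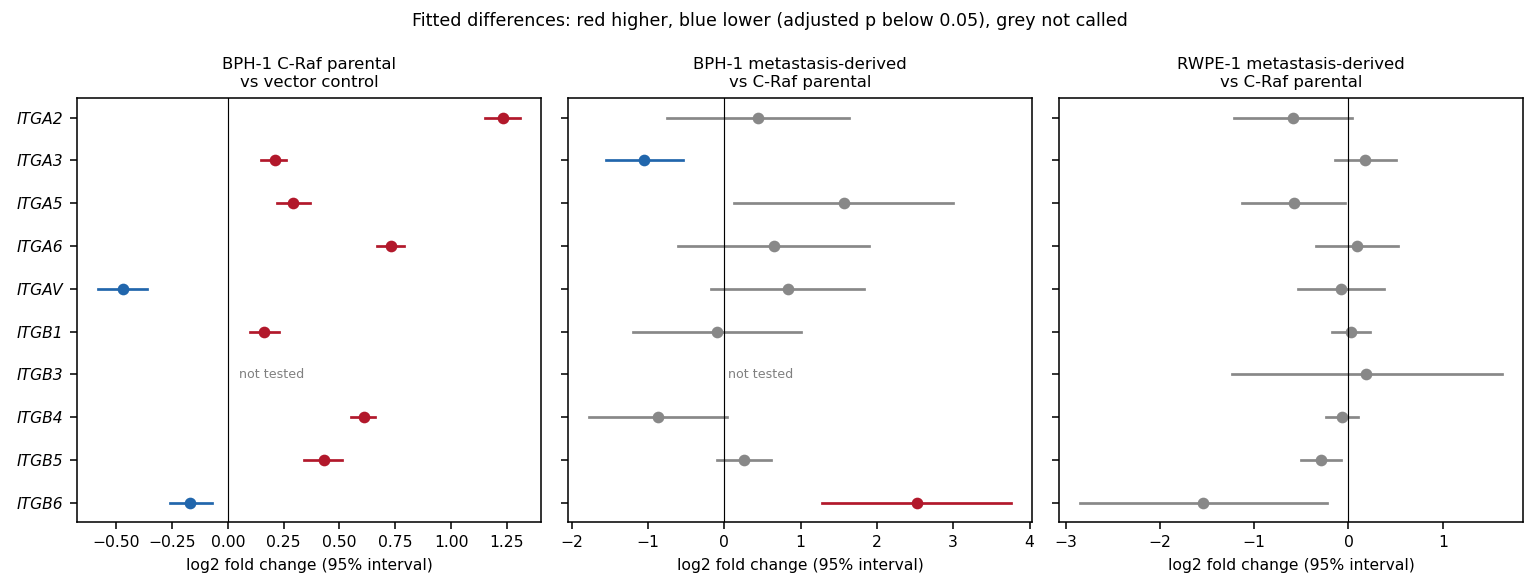
Log2 fold change with its 95% interval for each gene in the BPH-1 C-Raf, BPH-1 metastasis and RWPE-1 metastasis comparisons, with a different range on each horizontal axis. The 9 genes tested are called in BPH-1 C-Raf parental cells, ITGA3 and ITGB6 in BPH-1 metastasis-derived lines, and 0 of 10 in RWPE-1 metastasis-derived lines.

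Other genes of the integrin system were counted in the same BPH-1 comparison. Of 6 laminin chains, which are the ligands of alpha3 and alpha6 integrins, 4 rose and 1 fell. LAMA3, a chain of the laminin of hemidesmosomes, rose 3 times (log2 1.58 ± 0.03), and LAMA5 fell (log2 -0.33 ± 0.03). Of 10 RGD and collagen ligands tested, 9 fell and 1 rose. Those that fell most were CTGF, a matricellular protein (-2.42 ± 0.04), and FBN1, the fibrillin of microfibrils (-1.90 ± 0.07), while TGFB1 rose (0.19 ± 0.03). Summed fibroblast and stromal markers went from between 27.2 and 29.8 CPM to between 12.1 and 12.4, with 3 of 3 tested lower, among them COL1A1 (-1.17 ± 0.06), which is also 1 of these ligands. Summed haematopoietic markers went from between 0.551 and 0.831 CPM to between 0.0334 and 0.147, with the 1 tested lower. Summed basal markers went from between 3659 and 3751 CPM to between 3960 and 4070, with 3 higher and 2 lower. General epithelial markers went from between 3724 and 3839 CPM to between 3218 and 3302, with 1 higher and 3 lower. Endothelial markers went from between 1.01 and 1.43 CPM to between 1.57 and 1.66, with 1 of 2 tested higher. Platelet and megakaryocyte markers went from between 2.82 and 3.32 CPM to between 1.99 and 2.41, with 1 of 2 tested lower. The part of these markers in the integrin, laminin and ligand values was not tested.

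Among 23 intracellular activators and linkers, 10 rose and 8 fell. TNS4, a tensin that binds beta tails, rose 2.93 times (1.55 ± 0.03) and FERMT1, the kindlin of epithelial cells, rose 1.46 times (0.54 ± 0.03). FERMT2, the more widely expressed kindlin, fell (-1.56 ± 0.08), as did TLN2, a talin (-0.87 ± 0.12). Of 4 hemidesmosome partners, the collagen COL17A1 (0.70 ± 0.03) and the plakin PLEC (0.25 ± 0.04) rose, and the plakin DST (-0.22 ± 0.03) and the tetraspanin CD151 (-0.21 ± 0.03) fell. Of 5 other regulators of activation, inhibitors among them, 2 rose, FBLIM1 (0.19 ± 0.04) and ITGB1BP1 (0.14 ± 0.03), and 0 fell. Among the other integrin subunits 3 rose and 3 fell of 10 tested, with ITGB8, another partner of alphaV, at -1.11 ± 0.05, ITGA2B at -0.96 ± 0.21 and ITGA1, a collagen-binding chain, at 0.36 ± 0.10. The median log2 fold changes were 0.56 for laminins and -0.63 for RGD and collagen ligands, beside 0 for all genes.

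The same comparison in RWPE-1 rested on a single vector control library and has no test. Summed basal markers were 13056 CPM in it and 4349 to 9523 in the C-Raf parental libraries, whose part in the values was not tested. All 4 C-Raf parental libraries lay above it for ITGA2, ITGA5, ITGA6, ITGB1 and ITGB3, a pattern seen in 29% of 13481 genes, and below it for ITGB4 and ITGB5, seen in 31.0%. ITGA2 had 142 CPM in the vector control and 209, 490, 622 and 548 CPM with C-Raf. ITGA6 had 1018 CPM and then 1622, 2349, 2306 and 2282. ITGA5 had 98.7 CPM and then 194, 287, 510 and 487, and ITGB1 had 797 CPM and then 1130, 1187, 1145 and 1132.

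C-Raf parental library 1 was deposited in the same table as the RWPE-1 vector control, and libraries 2 to 4 in the other table. For ITGB6 and ITGAV library 1 lay below libraries 2 to 4. Over protein-coding genes library 2 differed less from library 1, by 77.2 times the counting noise, than from libraries 3 and 4, by 102 and 113 times. ITGB6 had 52.7 CPM in the vector control, 50.1 in C-Raf parental 1 and 164, 312 and 318 in the other three. ITGAV showed the same order, at 92.9 CPM in the vector control, 89.4 in C-Raf parental 1 and 159, 209 and 201 in the others. Within the shared table the log2 ratio of C-Raf parental 1 to vector control was 0.97 for ITGA5, 0.67 for ITGA6, 0.56 for ITGA2 and 0.50 for ITGB1, and between -0.07 and -0.03 for ITGB6, ITGAV and ITGB4. ITGB5 had 99.3 CPM in the vector control and 84.7, 96.4, 74.7 and 79.1 with C-Raf. ITGB4 had 1776 CPM and then 1737, 1556, 1649 and 1535. ITGB3, whose chain joins alphaV in the vitronectin receptor, had 1 count in the vector control and 199 over the 4 C-Raf parental libraries, a ratio of 48.5 with a counting interval of 8.61 to 1925. That interval leaves out the spread between the 4 libraries, which ran from 0.36 to 2.3 CPM. Within the shared table the log2 ratio of ITGB3 was 3.56, on 11.86 expected counts against 1.

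A fit over both cell lines, with a term for the cell line, called 0 of 10 integrin genes for C-Raf parental against vector control, where 0.814% of 15237 genes were called. Unadjusted p was below 0.05 for 3 of them: ITGA2 at 1.55 ± 0.38 (adjusted p = 0.0568 in edgeR), ITGA6 at 0.91 ± 0.31 (adjusted 0.236) and ITGA5 at 1.25 ± 0.48 (adjusted 0.358). DESeq2 called ITGA2 and ITGA6. ITGA2 was also called with RLE size factors, after ComBat-seq, and when RWPE-1 C-Raf parental 1 was left out, at log2 fold changes of 1.39 to 1.64. In the same fit ITGA4, an alpha chain that binds fibronectin and VCAM1, rose at 2.82 ± 0.65 (adjusted p = 0.0447 in edgeR). Its value was -2.26 without the single RWPE-1 vector control. Its call was lost without any 1 BPH-1 library of either group, or without RWPE-1 C-Raf parental 3 or 4. In BPH-1 the means of ITGA4 were 0.00966 CPM in vector control and 0 in C-Raf parental cells, and in RWPE-1 they were 2.23 and 19. COL17A1 also rose (0.77 ± 0.18, adjusted p = 0.0447 in edgeR). Its call was lost without any 1 BPH-1 library of either group, or without RWPE-1 C-Raf parental 2, 3 or 4.

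Metastasis-derived BPH-1 lines were compared with C-Raf parental cells to ask what differed after growth in the mouse. The 3 deeper metastasis-derived libraries came in a table of their own with the low-depth ones, and a difference between tables cannot be told apart from one between stages. Of 9 integrin genes tested, ITGB6 rose and ITGA3 fell, while 37.7% of 13458 genes were called, 20.9% higher and 16.8% lower. The metastasis-derived libraries differed among themselves by 201 to 799 times the counting noise. Marker sums moved with the stage as well: basal markers went from between 3960 and 4070 CPM in parental cells to between 11982 and 16249, general epithelial markers from between 3218 and 3302 to between 764 and 1371, fibroblast and stromal markers from at most 12.4 to between 52.2 and 72, endothelial markers from at most 1.66 to between 2.57 and 40.9, and platelet and megakaryocyte markers from at most 2.41 to between 3.68 and 14.6, with GP1BA called higher (2.81 ± 0.65), while the haematopoietic sum stayed under 1 CPM in every library. The stromal rise was mainly that of COL1A1, with means of 11.3 CPM in parental cells and 59.1 in the deeper lines. The endothelial rise was mainly that of VWF (0.76 and 17.6 CPM), while the mean of CDH5 fell (0.827 and 0.265 CPM). In the general epithelial list the mean of CDH1 did not fall (344 and 425 CPM). The part of these marker changes in the results below was not tested.

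ITGB6 had 25.4, 24.7 and 25.6 CPM in C-Raf parental libraries and 119 in BONE R069, 54.6 in BONE R072 and 249 in THYMUS R075. All 3 lay above the parental cells, also without TMM scaling, where BONE R072 had 32.1 CPM. The log2 fold change was 2.52 ± 0.52, a ratio of 5.74, with an adjusted p of 0.0118 in edgeR. ITGA3 had 1257, 1189 and 1200 CPM in parental cells and 499, 509 and 692 in the same lines, all lower, with a log2 fold change of -1.05 ± 0.21 and an adjusted p of 0.0115 in edgeR. Both calls were lost when any 1 C-Raf parental library was left out, with edgeR adjusted p of 0.0565 to 0.0704 and log2 fold changes of 2.48 to 2.51 for ITGB6 and -1.08 to -1.05 for ITGA3. They were also lost with the 3 low-depth libraries in the fit, at 1.77 (edgeR adjusted p = 0.133) and -1.99 (edgeR adjusted p = 0.0962). The share of RN7SL1 counts moved with these changes, and its part was not tested.

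The partner chains of the hemidesmosome receptor went apart in 2 of the 3 lines. ITGA6 had 1908 CPM in BONE R069 and 2472 in THYMUS R075, above all parental libraries at 1027 to 1101, but 511 in BONE R072. ITGB4 had 507 and 662 CPM in BONE R069 and THYMUS R075 and 1233 in BONE R072, all below the parental 1511 to 1587. Neither passed the test, with log2 fold changes of 0.65 ± 0.52 for ITGA6 (adjusted p = 0.36 in edgeR) and -0.87 ± 0.38 for ITGB4 (adjusted p = 0.113 in edgeR). Without BONE R072 both were called, at 1.06 and -1.37, as were ITGAV at 1.17 and ITGB5 at 0.32. The ratio of ITGA6 to ITGB4 per kb was 0.703 to 0.754 in parental cells, 3.90 in BONE R069, 3.86 in THYMUS R075 and 0.429 in BONE R072. This ratio does not depend on the scaling of a library.

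**Figure D4:**
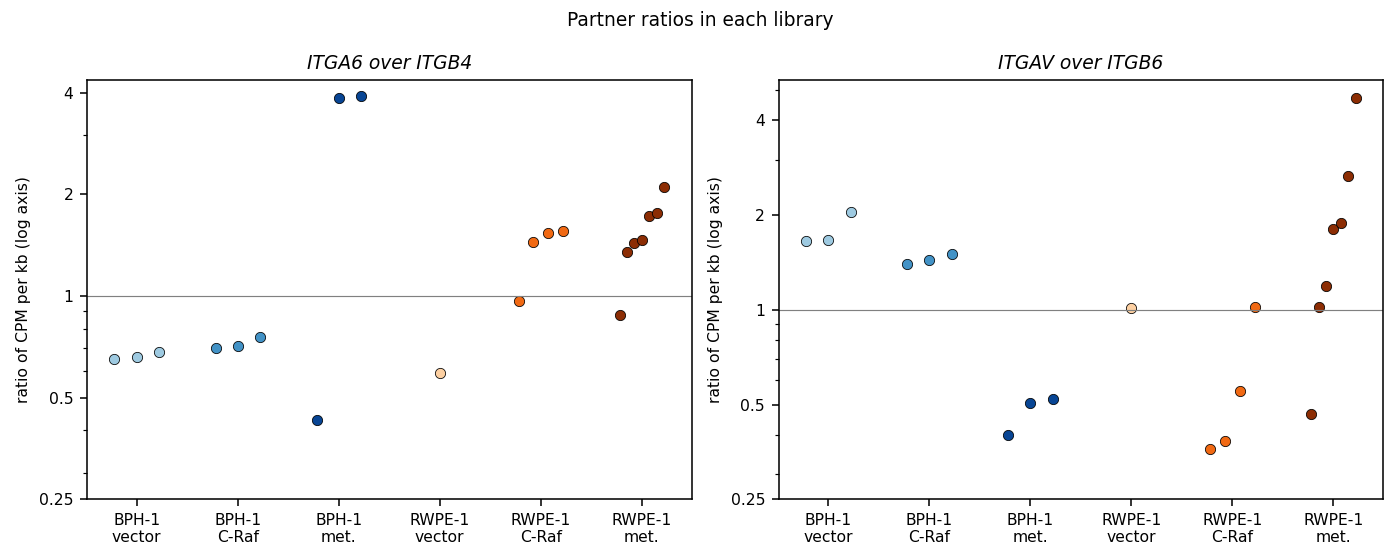
Ratio of ITGA6 to ITGB4 and of ITGAV to ITGB6 in CPM per kb (log axis) in each of 21 libraries, grouped by cell line and stage. ITGA6 over ITGB4 reaches 3.86 and 3.90 in 2 BPH-1 metastasis-derived libraries, and ITGAV over ITGB6 is 0.400 to 0.519 in all 3, below every other BPH-1 library.

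ITGA5 stood at 46.4 CPM in BONE R069, 116 in BONE R072 and 282 in THYMUS R075, beside 50.5 to 53.3 in parental cells, a log2 fold change of 1.57 ± 0.60 that missed the threshold (adjusted p = 0.0812 in edgeR). It was called by DESeq2 (1.58, adjusted p = 0.0193) and without BONE R069 (1.99, adjusted p = 0.0225 in edgeR). ITGA2 had 211, 164 and 631 CPM in the same order of lines, beside 242 to 260 in parental cells, so the log2 fold change of 0.44 ± 0.50 rested on THYMUS R075 and was -0.37 without it. ITGAV had 108, 48.4 and 174 CPM beside 60.6 to 67.2, and ITGB1 had 222, 110 and 442 CPM beside 276 to 290. For ITGA2, ITGAV and ITGB1 the metastasis-derived lines lay on both sides of the parental cells. ITGB5 had 67.6, 56.3 and 69.6 CPM, beside 54.0 to 58.9 (0.26 ± 0.15). Without TMM scaling ITGB5 had 33.2 CPM in BONE R072, below the parental 57.5 to 61.8. ITGB3 had 3, 1 and 12 counts in these lines.

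The ratio of ITGAV to ITGB6 per kb was between 1.4 and 2.05 in all 6 BPH-1 libraries of the other groups, and it was 0.519, 0.506 and 0.400 in BONE R069, BONE R072 and THYMUS R075. These ratios do not overlap between the stages. In RWPE-1 the ratio was 1.01 in the vector control, 0.360 to 1.02 in C-Raf parental and 0.467 to 4.71 in metastasis-derived libraries, which overlap.

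In the low-depth libraries most members rested on a few counts, and the values are CPM of protein-coding counts without TMM scaling. ITGA6 was the most abundant member in each, with 73, 21 and 15 counts in BONE R071, BONE R074 and BONE R075, that is 157, 159 and 135 CPM. ITGA3 had 19, 6 and 4 counts (40.9, 45.3 and 36.0 CPM), with exact Poisson 95% intervals that reach at most 98.6 CPM, and ITGB4 had 34, 9 and 4 counts (73.2, 68.0 and 36.0 CPM). These levels of ITGA6, ITGA3 and ITGB4 are below those of all 3 deeper lines. ITGB6 had 4, 2 and 2 counts, with upper limits of 22 CPM in BONE R071, 54.6 in BONE R074 and 65.0 in BONE R075. Without TMM scaling BONE R072 had 32.1 CPM, which is under the limits of BONE R074 and BONE R075. ITGAV had 3, 0 and 0 counts, and the floor of 3 counts is 22.7 CPM in BONE R074 and 27.0 CPM in BONE R075. Intervals and floors cover counting error only.

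The other genes of the integrin system in BPH-1 metastasis-derived lines were called in part. Of 22 activators and linkers tested, 7 fell and 1 rose. The adaptors BCAR1 (-1.28 ± 0.23) and ZYX (-1.45 ± 0.33) fell, and the tensin TNS1 rose (2.67 ± 0.45). Of the 5 other regulators of activation 3 fell, among them SHARPIN (-1.47 ± 0.21) and filamin FLNA (-0.79 ± 0.24). The hemidesmosome plakin DST rose (2.75 ± 0.37) and the tetraspanin CD151 fell (-0.93 ± 0.22). Of 6 laminins only LAMB1 was called, and it fell (-0.84 ± 0.17). Of 10 RGD and collagen ligands 3 rose and 2 fell: the matrix proteins TNC (3.47 ± 0.46) and COL1A1 (2.45 ± 0.20) rose, and CTGF (-3.63 ± 0.88) and TGFB1 (-0.88 ± 0.26) fell. ITGB8 rose (3.10 ± 0.44), as did ITGB7, a leukocyte beta chain (2.32 ± 0.70), and these were the only calls among 10 other subunits tested. The calls of ITGB7, ZYX, FLNA, CD151, LAMB1, TGFB1 and CTGF were lost when any 1 C-Raf parental library was left out. Those of BCAR1, SHARPIN, DST and TNC were lost with the low-depth libraries in the fit, at -1.86, -1.67, 1.84 and 2.68. List medians were -0.55 for activators and linkers, -0.77 for other regulators of activation and 0.53 for other subunits, beside 0.07 for all genes.

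In RWPE-1, 7 metastasis-derived libraries were compared with 4 C-Raf parental ones, and edgeR called 0 of 10 integrin genes and 0.0985% of 13194 genes. DESeq2 called 0 of 10 as well, and unadjusted p was below 0.05 for ITGB6, ITGA5 and ITGB5. ITGB6 ran from 16.0 to 214 CPM with a median of 50.1 in metastasis-derived libraries, beside 50.1, 164, 312 and 318 in parental cells (log2 fold change -1.54 ± 0.60, adjusted p = 0.525 in edgeR). Within tables, C-Raf parental 1 at 50.1 CPM lay among LN1A, LN1B and Spine at 16.0 to 64.8, whereas C-Raf parental 2 to 4 at 164 to 318 CPM stood beside 44.0 to 214 in Bone4, Bone5, Bone6 and Spine2. The 3 bone lines had 44.0, 50.1 and 75.8 CPM, and the highest value was that of Spine2.

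ITGA5 had 169, 239 and 355 CPM as lowest, median and highest of the 7 lines, beside 194, 287, 510 and 487 (-0.58 ± 0.25, adjusted p = 0.587 in edgeR). ITGB5 had 57.5, 69.2 and 79.4 CPM beside 84.7, 96.4, 74.7 and 79.1 (-0.29 ± 0.10, adjusted p = 0.402 in edgeR). The groups overlap for both. ITGA2 had 208, 292 and 506 CPM beside 209, 490, 622 and 548 (-0.59 ± 0.29). ITGA3 had 801, 912 and 1102 CPM beside 1122, 803, 700 and 666 (0.18 ± 0.15). For ITGA5, ITGA2 and ITGA3 the direction differed between tables. Beside the single C-Raf parental 1 at 194, 209 and 1122 CPM, LN1A, LN1B and Spine had means of 248, 287 and 1045. In the other table the means were 428, 553 and 723 CPM in parental and 246, 328 and 850 in metastasis-derived libraries.

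ITGB1, ITGB4 and ITGA6, the chains at the highest levels per kb in RWPE-1, each had an interval that includes 0. ITGB1 ran from 996 to 1315 CPM, beside 1130 to 1187 in parental cells, and the 95% interval of the log2 fold change was -0.17 to 0.23. ITGB4 ran from 1377 to 1643 CPM, beside 1535 to 1737, with an interval of -0.24 to 0.10. ITGA6 had 1391, 2167 and 3187 CPM, beside 1622 to 2349, with an interval of -0.35 to 0.53. ITGAV had 116, 158 and 205 CPM, beside 89.4 to 209 (-0.08 ± 0.21). ITGB3 had 0.223, 1.52 and 3.02 CPM, with 2.37 to 3.02 in LN1A, LN1B and Spine and 0.223 to 1.52 in the 4 lines of the other table. Its parental libraries had 0.360 CPM in the first table and 0.997 to 2.30 in the second, so the direction differed between tables. In the lists of other subunits, linkers, other regulators, hemidesmosome partners, laminins and other ligands, 0 genes were called in this comparison.

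Whether the metastasis effect differed between the cell lines was tested as an interaction over 17 libraries. Of the 10 integrin genes, 5 were called (ITGB6, ITGA5, ITGB5, ITGA3 and ITGB4), beside 44.5% of 14275 genes, so that the share of integrin genes was near that of all genes. The effect in BPH-1 minus that in RWPE-1 was 4.03 ± 0.99 for ITGB6 (adjusted p = 0.00364 in edgeR) and 2.11 ± 0.58 for ITGA5 (adjusted p = 0.0081 in edgeR). For ITGB5 it was 0.51 ± 0.17, for ITGA3 -1.27 ± 0.25 (adjusted p = 0.000722 in edgeR) and for ITGB4 -0.85 ± 0.29. The calls of ITGA3, ITGA5 and ITGB6 held when each library was left out in turn. Those of ITGB4 and ITGB5 were lost without some single libraries, at -0.60 without BONE R069, -0.73 without THYMUS R075, and 0.46 or 0.49 without BPH-1 C-Raf parental 2 or 3. ITGB5 was at the threshold without RWPE-1 C-Raf parental 2, at 0.43 with an edgeR adjusted p that rounds to 0.05. ITGAV was called without BONE R072 (1.23) or RWPE-1 C-Raf parental 1 (1.10), ITGA6 without BONE R072 (0.95) and ITGB1 without THYMUS R075 (-0.78). With the low-depth libraries in the fit ITGB6 and ITGA3 were called and the other 8 were not. A fit of metastasis-derived against parental cells over both lines called 0 of 10 integrin genes in edgeR and in DESeq2, where edgeR called 2.53% of 15237 genes, and ITGB4 was the 1 gene with an unadjusted p below 0.05 (-0.41 ± 0.16, adjusted p = 0.136 in edgeR).

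BPH-1 and RWPE-1 C-Raf parental cells differed in 9 of the 10 integrin genes, beside 74% of 13524 genes. The cell lines came in separate tables, so that cell line, medium and table cannot be told apart here. In BPH-1, 8 were lower, where 38.0% of all genes were, and 1 was higher, where 36.0% were. ITGB1 was lower in BPH-1, at 276 to 290 CPM against 1130 to 1187, with a log2 difference of -2.03 ± 0.07 and an adjusted p of 6.99e-07 in edgeR. ITGA5 (-2.85 ± 0.35), ITGB6 (-3.07 ± 0.61) and ITGAV (-1.37 ± 0.28) were lower as well. For these 4 genes the cell lines did not overlap. RWPE-1 C-Raf parental 1 had the lowest RWPE-1 value of each and was still above every BPH-1 parental library.

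ITGA6 (-1 ± 0.15), ITGB5 (-0.58 ± 0.09) and ITGA2 (-0.89 ± 0.33, adjusted p = 0.0408 in edgeR) were also lower in BPH-1, and ITGA3 was higher (0.56 ± 0.18, adjusted p = 0.0224 in edgeR). The calls of ITGA2 and ITGA3 were lost when any library other than RWPE-1 C-Raf parental 1 was left out, with edgeR adjusted p of up to 0.111 and 0.0676. ITGB4 was not called (-0.08 ± 0.09, 95% interval -0.28 to 0.12), with 1511 to 1587 CPM in BPH-1 and 1535 to 1737 in RWPE-1. ITGB3 had 2 counts over 3 BPH-1 libraries and 199 over 4 RWPE-1 libraries, a ratio of 59.4. Its counting interval of 16.2 to 494 leaves out the spread between libraries. Of 23 activators and linkers, 8 were higher and 13 lower in BPH-1, with the kindlin FERMT2 at -2.95 ± 0.20, and of 10 RGD and collagen ligands 4 were higher and 2 lower, among the latter FN1, the fibronectin bound by alpha5, at -3.36 ± 0.76.

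Over the 21 deeper libraries, ITGB3, ITGB6, ITGA5 and ITGB1 varied most, with standard deviations of 2.04, 1.31, 1.26 and 1.15 on the log2 CPM scale, and ITGB5 and ITGA3 least, with 0.36 and 0.38. Among 12612 other protein-coding genes with a mean of at least 1 CPM, the closest pattern was taken as the smallest root mean square (RMS) difference of mean-centred log2 CPM over those libraries. For ITGB1 these were PIP4K2A (0.21) and the gene listed as pk (0.23), for ITGA5 KLF6 (0.42) and MAP4K4 (0.46), for ITGB6 PMEPA1 (0.72) and RNASE4 (0.73), and for ITGB3 TUBA1A (0.88) and FN1 (0.89), the last of which encodes fibronectin. The cell line difference is part of all 4 patterns, and the libraries of a line share it.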

How the data were processed

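The 4 tables deposited by the authors hold RSEM expected counts per gene symbol, without normalization. The study's methods name the TOIL pipeline, and the submitters' processing notes name cutadapt, FastQC, STAR, RSEM and hg38 without versions. The annotation is not given in the sources used here. All 24 columns matched a listed sample, and the sequencing kit was an mRNA kit. Groups follow the titles and treatment labels. Because BONE R075 and THYMUS R075 carry conflicting sites, no site was used for them.

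Values were rounded to whole counts. Protein-coding genes (GENCODE version 29, RefSeq for other symbols) were kept, filtered by filterByExpr by group and scaled by TMM. edgeR 4.0.16 quasi-likelihood tests were adjusted over all genes tested. Standard errors are the fold change over the square root of F. Exon length is the union of annotated exons. The 3 low-depth libraries were left out of the fits. Likeness used log2 CPM with a prior count of 2. The fits were tested on simulated data.

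The genes, lists and tests were chosen with earlier results of these data known. Named list genes are up to 2 rises and 2 falls per list among calls with a mean of at least 1 CPM. Alternatives were RLE size factors, DESeq2 1.42.0, no low-count filter, all genes of the tables, the low-depth libraries, leaving out each library, a replicate block, a table term for RWPE-1, and ComBat-seq (sva 3.50.0). The values of some genes, the overexpressed one included, are not reported here.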

Additional observations from a re-analysis of the deposited data

Results flagged for a closer look

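The metastasis effect differed between BPH-1 and RWPE-1 by the interaction test for 5 integrin genes. On the log2 scale, the BPH-1 effect minus the RWPE-1 effect was 4.03 for ITGB6, 2.11 for ITGA5, 0.51 for ITGB5, -0.85 for ITGB4 and -1.27 for ITGA3. In BPH-1 the stage also separates the tables, and the share of RN7SL1 counts moved with the stage, and the part of both was not tested. The RWPE-1 effect had no term for the table in this test. ITGB6 had 50.1 CPM in C-Raf parental 1, beside a mean of 41.6 in the lines of its table. In the other table the means were 265 CPM in parental and 96.1 in metastasis-derived libraries. For ITGA5 and ITGA3 the direction in RWPE-1 differed between tables.

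A single library stood far from the rest of its group, by Dixon's criterion, in 4 cases over 30 tests of groups with 4 to 7 libraries. For normally distributed values chance alone gives about 1 in 20. CPM was tested without a log scale, and the tests reuse the same libraries, so that rate may not hold here. Among the 6 BPH-1 metastasis-derived libraries, with the low-depth ones included, THYMUS R075 was apart for ITGA2, at 631 CPM with the next highest at 211. The low-depth libraries entered without TMM scaling, on 36, 8 and 3 counts of ITGA2, and the deeper ones alone are too few for the test. THYMUS R075 was also apart for ITGB3, at 0.46 CPM with the next at 0.106. This says nothing about the low-depth libraries, whose 0 counts allow up to 7.94 to 33.2 CPM. RWPE-1 C-Raf parental 1 was apart for ITGA6, at 1622 CPM with the next lowest at 2282. Among the RWPE-1 metastasis-derived lines, Spine2 was apart for ITGB6, at 214 CPM with the next highest at 75.8.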

How the results depend on the processing

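In BPH-1, 7 integrin genes rose and 2 fell with C-Raf under every alternative run. Controls and C-Raf parental libraries share replicate numbers, but same-numbered libraries did not deviate together (correlations 0.006, 0.004 and -0.026). With a replicate block the counts were again 7 and 2, and ITGA2 was at 1.23.

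With the 3 low-depth libraries, BPH-1 metastasis-derived lines had 0 integrin genes higher and 0 lower, and log2 fold changes were -0.27 for ITGA2, -0.23 for ITGA6, 0.00 for ITGAV and -0.23 for ITGB5, while the median of all genes moved from 0.07 to -0.19. In the interaction they gave 1 higher and 1 lower and ITGA6 at -0.21. DESeq2 had 2 higher in BPH-1 metastasis-derived lines. For C-Raf over both lines, RLE size factors gave 1 higher, DESeq2 2 and ComBat-seq 1, and in the interaction RLE gave 1 lower. In RWPE-1 metastasis-derived lines a table term gave 0.07 for ITGAV, -0.01 for ITGB1 and -0.41 for ITGB3. The second RWPE-1 table alone, an alternative chosen after seeing the data, gave -0.09 for ITGB1, -1.19 for ITGB3 and 0.00 for ITGB4. The cause of these shifts was not tested.

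Leaving out 1 library at a time gave 0 to 4 integrin genes higher and 0 to 2 lower in BPH-1 metastasis-derived lines (ITGA2 -0.37 to 0.75, ITGB1 -0.70 to 0.25), 0 to 1 higher for C-Raf over both lines (ITGA4 -2.26 to 3.05), 2 to 5 higher and 1 to 2 lower in the interaction (ITGB1 -0.78 to 0.21), and 0 to 1 higher in BPH-1 against RWPE-1. In RWPE-1 metastasis-derived lines ITGA6 ran from -0.02 to 0.18, ITGAV from -0.28 to 0.05, ITGB1 from 0.00 to 0.06 and ITGB3 from -0.12 to 0.54.

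Over all genes, BPH-1 metastasis-derived lines had 2819 higher and 2257 lower, and 1288 and 815 with the low-depth libraries. RWPE-1 had 10 and 3, and 88 and 88 by DESeq2. C-Raf over both lines had 64 and 60, and 279 and 175 by DESeq2. Metastasis over both lines had 270 and 116, with up to 1458 higher (all genes of the tables) and 396 lower (DESeq2). The interaction had 2998 lower, and 1750 with the low-depth libraries. In those 3 libraries, depth limits most integrin genes to a few counts.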
